A study of Mus musculus with 12 samples.

Results

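The choroid plexus epithelium is represented here by 34 genes out of the 25239 gene symbols in the count table. They were chosen by name, as transcripts known from this epithelium, and comprise Ttr, Kl, Aqp1, F5, Slc4a5, Tmem72, Folr1, Kcne2, Kcnj13, Clic6, Otx2, Cldn2, Sostdc1, Prlr, Steap1, Enpp2, Slc13a4, Calml4, Igf2, Igfbp2, Cab39l, Mdfic, Rdh5, Wfdc2, Slc31a1, Car12, Car14, Abca4, Msx1, Lmx1a, Slc29a4, Perp, Sulf1 and Slc4a2. Their choice was made with earlier results of these data known, so their shares below are not independent of these data. For brain, the paper lists Aqp1, F5 and Slc4a5 as lower, Tmem72 as decreased in a predicted network and Kl as changed. Messenger RNA was sequenced from brain and liver of wild type male C57BL/6J mice aged 24 months, with 3 control and 3 heat stress libraries per tissue. The heat stress mice were kept at 40 °C and 60% relative humidity for 3 hours a day on 15 days, and the control mice were not heated. All groups share the genotype, sex and age. The region of the brain from which the frozen piece was cut is not named in the sources used here.

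The choroid plexus is a folded tissue in the ventricles of the brain, in which a single layer of epithelial cells surrounds leaky blood vessels. Its epithelium secretes the cerebrospinal fluid by moving sodium, chloride, bicarbonate and water, forms the barrier between blood and that fluid through tight junctions, and carries vitamins and hormones across. It is the main site at which the brain makes transthyretin, the carrier of thyroxine and of the retinol-binding protein. Several of its products, among them transthyretin and coagulation factor V, are also made by hepatocytes, which is why the liver libraries are used below.

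The brain libraries held 10552686 to 14597197 counts each and the liver libraries 10466198 to 15609040. A brain piece can hold more or less of a ventricle, and libraries differed in markers of place and of other cells. The summed normalized count of 14 striatal genes was 847, 1425 and 847 in control replicates 1, 2 and 3, and 1794, 1379 and 2733 in heat stress replicates 1, 2 and 3. A list of 12 genes of habenula and thalamus summed to 283, 322 and 780 in control and to 469, 298 and 221 after heat stress. Control replicate 3 was the highest in the latter list, and heat stress replicate 3 the highest in the former and the lowest in the latter. Genes of leptomeningeal fibroblasts, the cells of the brain's covering, summed to 2583 in heat stress replicate 2 against 702 to 1310 in the other 5 brain libraries. The part of these differences in the results below was not tested.

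In brain, 33 of the 34 genes had enough counts for the test, and 32 of them had a lower fitted level after heat stress, with a median log2 fold change of -0.82 against -0.003 over all 14806 genes tested. No gene of the group passed the threshold of an adjusted p-value under 0.05 in edgeR's quasi-likelihood test, and neither did any other brain gene (0 of 14806, 0%). At an unadjusted p-value under 0.05, 18 of the 33 (54.55%) were lower and 0 were higher, where 10.0% of all genes tested were lower and 10.0% higher. In 11 of the 33 (33.33%) every heat stress library lay below every control library, against 12% of all genes, and 0 lay above, against 12.9%. DESeq2 called Kl (adjusted p = 0.00127) and Enpp2 (adjusted p = 0.00892) lower, 2 of the 11 tested genes of the group to which it gave an adjusted p-value, where it called 3.66% of all such genes lower. It gave none to the other 22, Aqp1, F5 and Tmem72 among them. The log2 fold change lay below -1 for 12 of the 33 (36.4%), against 0.648% of all genes tested, and it stayed below -1 with each library left out in turn for 4 of the 12 (Kl, Aqp1, F5 and Tmem72). Over the other 8 the value nearest to 0 was -0.44, for Prlr. Kl, Aqp1, F5 and Tmem72 were already named for brain in the paper, and the group was chosen with earlier results known. Fewer epithelial cells in a piece and less RNA per cell cannot be told apart in these bulk samples, and nothing in the labels says how the animals were spread over cages or days, so the p-values measure the spread between these samples only.

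The count at an unadjusted p-value under 0.05 depended on single libraries. Leaving out control replicate 3 gave 7 of 33 genes (21.2%), where 8.12% of all genes tested were lower in the same fit. Leaving out heat stress replicate 3 gave 11 of 34 (32.4%, against 9.97%). Leaving out both gave 6 of 33 (18.2%, against 8.28%), with a median log2 fold change of -0.25. Leaving out a library can only keep or add genes without overlap, and without heat stress replicate 2 these were 25 of 33 (75.8%), against 15.8% of all genes.

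The label was checked against 10 defining markers of the epithelium (Ttr, Folr1, Kcnj13, Kcne2, Clic6, Otx2, Tmem72, Slc4a5, Aqp1 and Kl), all of which were detected in all 6 brain libraries. Their summed normalized count (TMM-normalized CPM, which scales each count to the size of its library) was 1555, 1267 and 2527 in the control libraries, and 659, 1146 and 266 after heat stress. The groups did not overlap, but heat stress replicate 2 came close to control replicate 2. Ttr made up most of this sum in every library. Taken singly, 6 of the 10 markers were lower at an unadjusted p-value under 0.05 and 4 had no overlap. Over all genes tested, 10.0% were lower and 12% lower without overlap. Per kilobase of exon, the control level was 1386 for Ttr, 129 for Enpp2, 30.2 for Igfbp2, 21.6 for Igf2 and 12.8 for Kcnj13, and it was below 10 for the other 29 genes, down to 0.351 for Tmem72. Ttr alone made up 27.2% to 55.9% of the summed CPM of the 34 genes in a library, and Enpp2 21.9% to 32.2%.

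**Figure D1:**
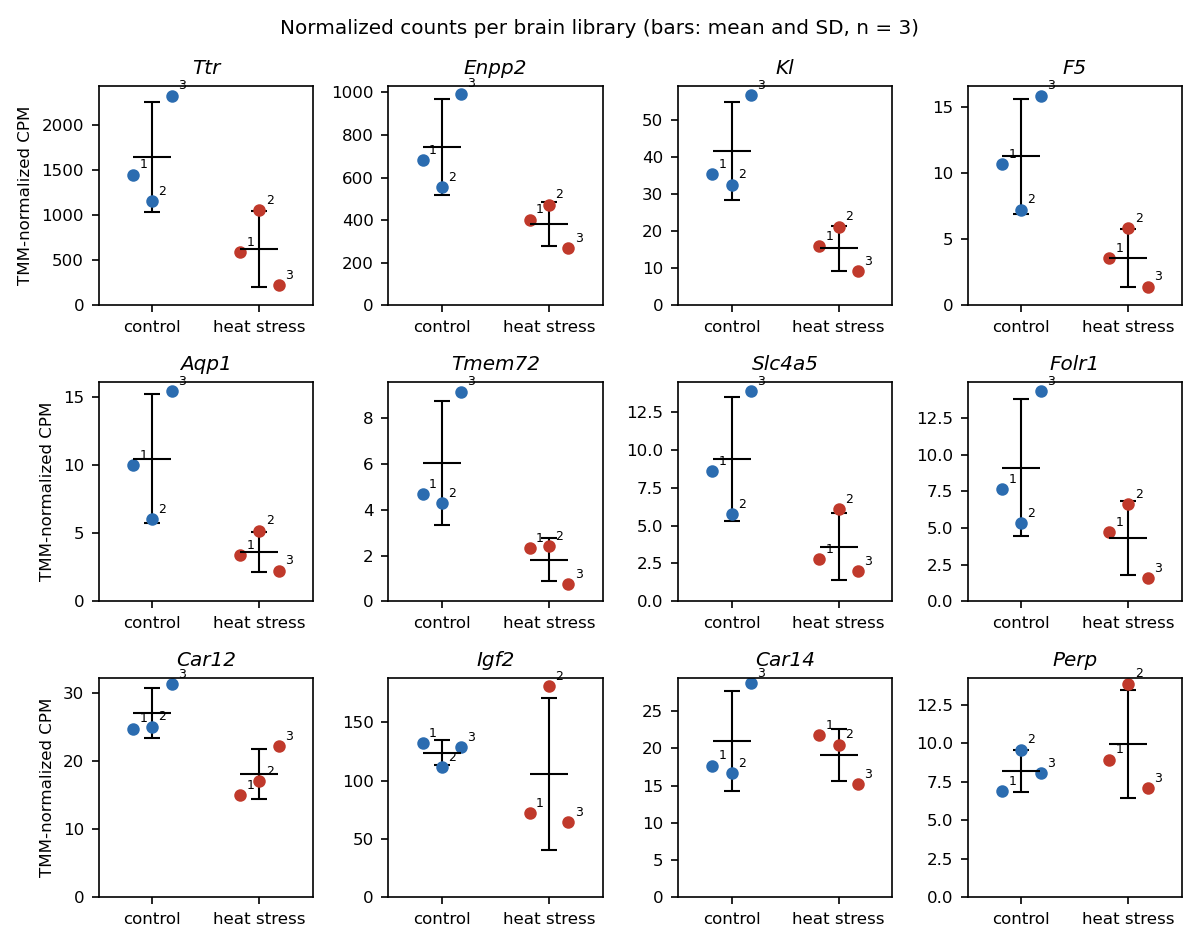
TMM-normalized CPM (vertical axes, each from 0) of 12 genes in the 3 control (blue) and 3 heat stress (red) brain libraries, with the replicate number beside each point and bars for the mean and SD. Ttr, Enpp2, Kl, F5, Aqp1, Tmem72 and Car12 show no overlap between the groups, while Slc4a5, Folr1, Igf2, Car14 and Perp overlap.

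Of the 9 secreted or shed products, 7 were lower at an unadjusted p-value under 0.05 and 5 had no overlap between the groups, with a median log2 fold change of -0.96. The shares over all genes tested were 10.0% lower and 12% lower without overlap. Kl encodes klotho, a co-receptor for fibroblast growth factor 23 that is also shed into the cerebrospinal fluid. Its normalized counts were 35.5, 32.6 and 56.7 in control and 16.0, 21.2 and 9.16 after heat stress. All 3 heat stress libraries lay below all 3 controls, with means of 41.6 ± 13.2 and 15.5 ± 6.05 (SD, n = 3 each) and a 2.69-fold lower fitted level (log2 fold change -1.43, SE 0.30, adjusted p = 0.170 in edgeR). Kl had the smallest unadjusted p-value of the group, 0.000966, and ranked 42 among the 14806 genes.

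Ttr, which encodes transthyretin, had 1448, 1159 and 2325 normalized counts in control and 591, 1057 and 227 after heat stress. The groups were separated by the narrow gap between control replicate 2 and heat stress replicate 2, and the means were 1644 ± 607 and 625 ± 416 (SD, n = 3 each). The fitted level was 2.63-fold lower (log2 fold change -1.40, SE 0.50, unadjusted p = 0.0237, adjusted p = 0.199 in edgeR). Without heat stress replicate 2 the log2 fold change was -2.005, and over each library left out in turn it lay between that value and -0.997. Ttr took 0.0228% to 0.242% of all brain counts, and its count exceeded that of the hepatocyte gene Alb, albumin, by 110-fold to 4104-fold in the brain libraries, whereas in liver it was 0.0895 to 0.144 times that of Alb.

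Enpp2 encodes autotaxin, a secreted enzyme that makes lysophosphatidic acid, and it is also made by oligodendrocytes. It had 683, 554 and 993 normalized counts in control and 402, 473 and 268 after heat stress, without overlap (log2 fold change -0.96, SE 0.26, adjusted p = 0.170 in edgeR). The 12 oligodendrocyte genes tested had a median log2 fold change of 0.06, and their sums overlapped between the groups. At an unadjusted p-value under 0.05, 0 of them were lower and 2 higher, against 10.0% of all genes tested in each direction. F5, coagulation factor V, had 10.7, 7.24 and 15.9 normalized counts in control and 3.60, 5.82 and 1.42 after heat stress, again without overlap (log2 fold change -1.63, SE 0.44, adjusted p = 0.170 in edgeR). Sulf1, an extracellular sulfatase that trims heparan sulfate, had 29.5, 22.0 and 33.3 against 19.5, 21.1 and 18.2 (log2 fold change -0.53, SE 0.16). Sostdc1, an inhibitor of BMP and Wnt signalling, had 10.2, 8.03 and 14.7 against 4.43, 8.33 and 2.17, so that heat stress replicate 2 lay above control replicate 2 (log2 fold change -1.13, SE 0.41, and -1.73 without heat stress replicate 2).

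The insulin-like growth factor genes had uneven values among the heat stress libraries. Igf2, which leptomeningeal fibroblasts make as well, had 131.7, 111 and 128 normalized counts in control and 71.9, 180.7 and 64.3 after heat stress, where heat stress replicate 2 was the highest of all 6 libraries (log2 fold change -0.23, SE 0.36, and -0.86 without that library). Igfbp2, which encodes a binding protein of the IGFs, had 29.6 in heat stress replicates 1 and 3 but 56.3 in heat stress replicate 2, within the control range of 54.2 to 57.7 (log2 fold change -0.53, SE 0.23). Heat stress replicate 2 was also the highest library for 15 of the 16 leptomeningeal fibroblast genes tested, against 21.9% of all genes tested. Wfdc2, a secreted protease-inhibitor-like protein, had a log2 fold change of -0.94 (SE 0.55), or -1.93 without heat stress replicate 2, and overlapping groups.

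Of the 8 genes for ion and water transport, 5 were lower at an unadjusted p-value under 0.05 and 3 had no overlap, with a median log2 fold change of -0.81. For comparison, 10.0% of all genes tested were lower and 12% lower without overlap. Aqp1, the water channel of the apical membrane, had 10.0, 6.02 and 15.5 normalized counts in control and 3.42, 5.20 and 2.27 after heat stress. The groups did not overlap, and the fitted level was 2.89-fold lower (log2 fold change -1.53, SE 0.38, adjusted p = 0.170 in edgeR). Slc4a5, an apical sodium bicarbonate cotransporter, had 8.57, 5.76 and 13.8 against 2.77, 6.09 and 1.98, and heat stress replicate 2 reached above control replicate 2 (log2 fold change -1.37, SE 0.43, and -1.98 without heat stress replicate 2). Slc4a2, the basolateral chloride and bicarbonate exchanger, had 45.7, 38.9 and 60.8 against 36.4, 34.9 and 25.1 with no overlap (log2 fold change -0.59, SE 0.19).

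The carbonic anhydrases differed in their values. Car12 had 24.8, 25.1 and 31.3 normalized counts in control and 15.1, 17.0 and 22.2 after heat stress (log2 fold change -0.58, SE 0.17), and heat stress replicate 3 was the highest of its group. Car14 overlapped between the groups, with values between 16.7 and 28.7 in control and between 15.2 and 21.8 after heat stress (log2 fold change -0.13, SE 0.23). Among the channel genes, Kcne2, a potassium channel subunit, had a log2 fold change of -1.24 (SE 0.52), which was -0.57 without control replicate 3 and -1.95 without heat stress replicate 2. The potassium channel gene Kcnj13 had -1.03 (SE 0.52), and -1.63 without heat stress replicate 2. Clic6, of the chloride intracellular channel family, had -0.52 (SE 0.26). For all 3 of these channel genes the groups overlapped.

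Of the 7 genes for nutrients, vitamins and metals, 3 were lower at an unadjusted p-value under 0.05 and 1 had no overlap, with a median log2 fold change of -0.82. Among all genes tested, 10.0% were lower and 12% lower without overlap, and 1 of 7 is near the latter share. Rdh5, a retinol dehydrogenase, had 6.92, 6.46 and 13.8 normalized counts in control and 5.72, 5.73 and 2.74 after heat stress, without overlap (log2 fold change -0.93, SE 0.37). Slc29a4, a monoamine transporter, had 12.5, 18.2 and 21.2 against 10.9, 14.2 and 10.4, with heat stress replicate 2 above control replicate 1 (log2 fold change -0.54, SE 0.22). Abca4, a retinoid transporter, had a log2 fold change of -0.82 (SE 0.33). Folr1, the folate receptor that moves folate into the cerebrospinal fluid, was 5.32 to 14.3 in control and 1.61 to 6.63 after heat stress (log2 fold change -1.07, SE 0.48, unadjusted p = 0.0520). Steap1, a metalloreductase, had -0.90 (SE 0.66), and the copper transporter gene Slc31a1 had -0.28 (SE 0.17). The sulfate transporter gene Slc13a4 ran from 15.2 to 25.5 in control, and after heat stress it was 7.20, 32.4 and 8.69, so that heat stress replicate 2 was again the highest of all 6 libraries. Its log2 fold change was -0.35 (SE 0.54), and -1.37 without that library.

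Of the 7 receptor, junction and signalling genes, 2 were lower at an unadjusted p-value under 0.05 and 1 had no overlap, with a median log2 fold change of -0.57. Here too the shares over all genes tested were 10.0% lower and 12% lower without overlap, and 1 of 7 is near the latter. Tmem72, a membrane protein of this epithelium, had 4.66, 4.28 and 9.15 normalized counts in control and 2.31, 2.42 and 0.756 after heat stress. Its groups did not overlap, and its fitted level was 3.27-fold lower (log2 fold change -1.71, SE 0.44, adjusted p = 0.170 in edgeR), the lowest log2 fold change of the 33. Cldn2, the claudin that makes tight junctions permeable to sodium, ran from 3.58 to 12.3 in control and from 0.567 to 4.30 after heat stress, with overlap (log2 fold change -1.42, SE 0.62). Its log2 fold change was -0.74 without control replicate 3 and -2.01 without heat stress replicate 2. Prlr, the prolactin receptor, had -1.01 (SE 0.57), and the calmodulin-like gene Calml4 had -0.57 (SE 0.34). Mdfic, a regulator of transcription, had -0.24 (SE 0.27), and Cab39l, a scaffold of kinases, had -0.06 (SE 0.16). Perp, a desmosome-associated membrane protein, was the exception in sign at 0.29 (SE 0.26), with 6.92 to 9.60 in control and 7.08 to 13.9 after heat stress.

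Of the 3 transcription factors, Msx1 had 6.38, 6.28 and 10.5 normalized counts in control and 4.16, 5.46 and 3.49 after heat stress, without overlap (log2 fold change -0.82, SE 0.27). Otx2, which the epithelium needs to form, overlapped between the groups (log2 fold change -0.65, SE 0.37). Lmx1a, a factor of the roof plate from which the plexus arises, was not tested. Its raw counts were 6, 9 and 35 in the control libraries and 29, 2 and 1 in the heat stress libraries.

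Control replicate 3 was the highest library for 29 of the 33 genes (87.9%), against 16.1% of all genes tested, and heat stress replicate 3 was the lowest for 27 (81.8%), against 12.8%. Heat stress replicate 2 was the highest for the other 4 (Perp, Mdfic, Igf2 and Slc13a4), which is 12.1%, against 21.9% of all genes tested. Heat stress replicate 1 lay below every control library for 25 genes (75.8%), against 30.6% of all genes tested. Heat stress replicate 3 did so for 31 (93.9%, against 26.8%) and heat stress replicate 2 for 12 (36.4%, against 32.4%). In 14 genes heat stress replicate 2 was the only heat stress library to reach the control range, and the share of all genes tested for which this held was not counted.

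**Figure D2:**
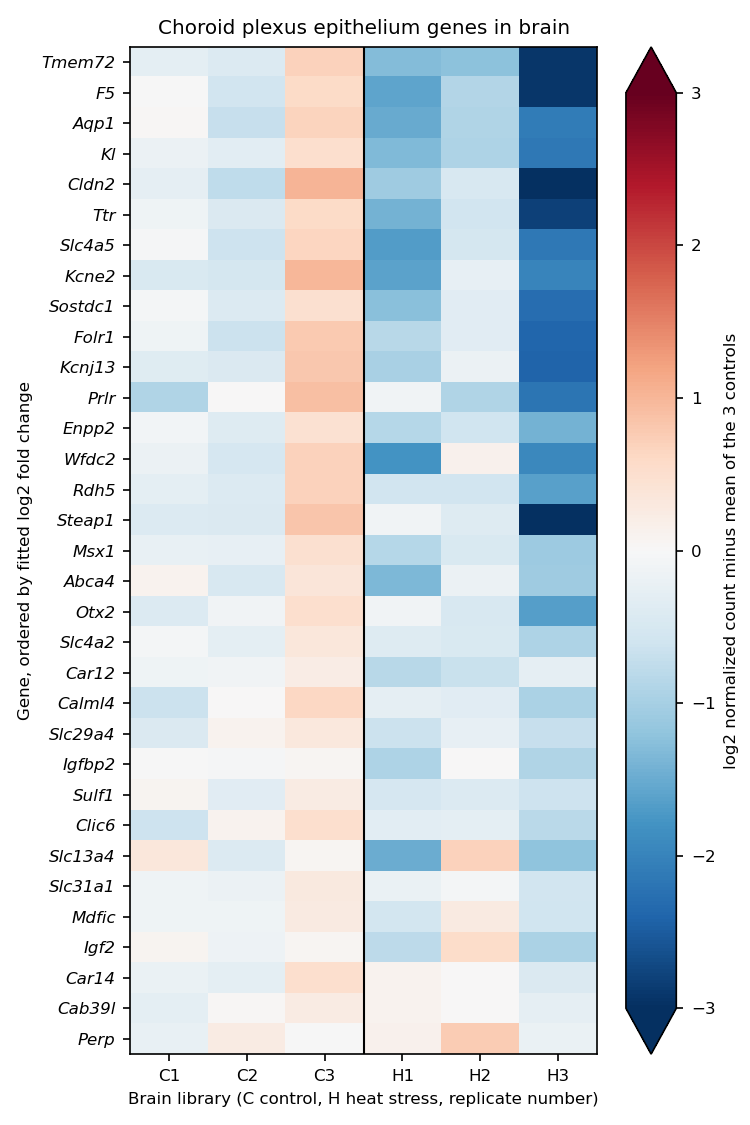
Each row is 1 of the 33 genes tested in brain, ordered by fitted log2 fold change, and each column 1 library (C1 to C3 control, H1 to H3 heat stress), coloured by log2 normalized count minus the mean log2 of the 3 controls. Control replicate 3 is the highest library for 29 genes and heat stress replicate 3 the lowest for 27.

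To describe how far the genes moved as a unit, each was divided by the summed normalized count of the defining markers other than Ttr and itself. Those 9 markers without Ttr summed to 107.2, 107.4 and 201.2 in control and 68.4, 89.4 and 38.9 after heat stress, a 5.17-fold span over the 6 libraries. Of the 23 tested genes outside the defining markers, 13 spanned a narrower range as a ratio than as a level and 10 a wider one. The span of Rdh5 went from 5.05-fold to 1.39-fold, that of Enpp2 from 3.70-fold to 1.40-fold and that of Sostdc1 from 6.78-fold to 1.70-fold. That of Perp went from 2.01-fold to 4.53-fold and that of Cab39l from 1.46-fold to 3.62-fold. A gene with an even level gains the span of the divisor, and the 6 libraries are the same in both measures.

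**Figure D3:**
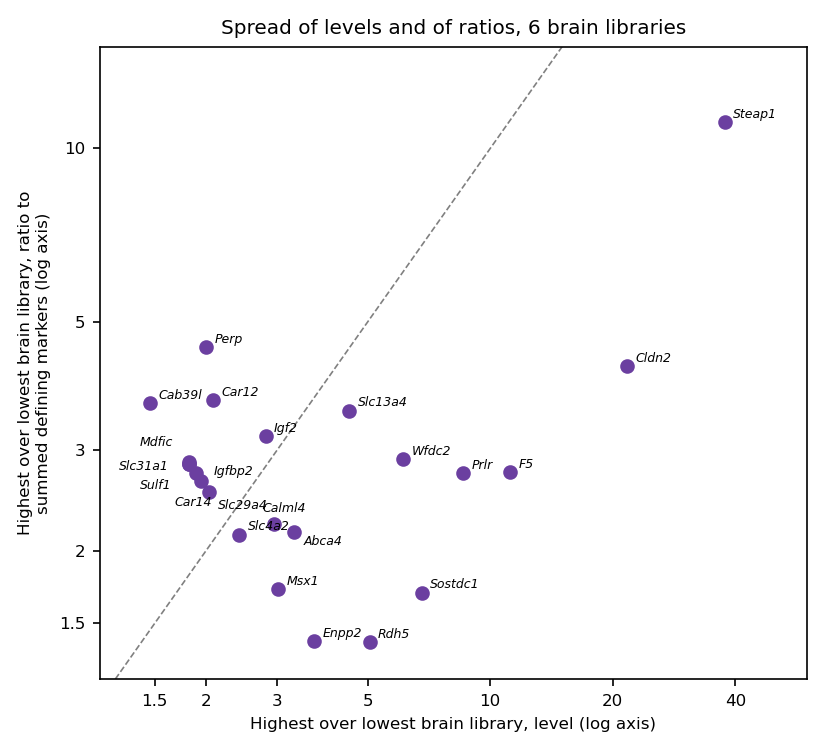
For 23 genes outside the defining markers, the highest over the lowest brain library is shown for the normalized count (horizontal, log axis) and for its ratio to the summed defining markers (vertical, log axis), with a dashed line where both are equal. Rdh5, Enpp2 and Sostdc1 lie far below the line, at ratios of 1.39, 1.40 and 1.70, while Perp and Cab39l lie above it.

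Kl and Aqp1 stand for the genes with the smallest p-values and Abca4 and Cldn2 for those whose promoters hold the letters searched, so their promoters are printed. RefSeq on GRCm38.p6 gave 40 promoter windows for 27 of the 34 genes, each taken as the 250 bases before the start, 5′ to 3′ on the strand of the gene. Windows were searched on both strands for TAATCC (the OTX2 type), TAATTA (a homeodomain core that shares TAAT with it), GAANNTTC (the core of the heat shock element) and TATAAA (the TATA box), and matches are in capitals, read on the printed strand.
Kl, chr5:150952357-150952606, plus strand: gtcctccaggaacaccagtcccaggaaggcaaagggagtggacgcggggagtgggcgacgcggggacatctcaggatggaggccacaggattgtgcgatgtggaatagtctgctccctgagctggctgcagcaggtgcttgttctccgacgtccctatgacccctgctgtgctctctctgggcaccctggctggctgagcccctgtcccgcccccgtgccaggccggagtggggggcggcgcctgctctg
Aqp1, chr6:55336049-55336298, plus strand: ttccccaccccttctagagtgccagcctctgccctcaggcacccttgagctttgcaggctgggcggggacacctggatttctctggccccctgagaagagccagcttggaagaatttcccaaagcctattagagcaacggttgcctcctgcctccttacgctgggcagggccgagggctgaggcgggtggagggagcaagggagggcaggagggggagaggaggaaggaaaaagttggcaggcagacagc
Abca4, chr3:122044210-122044459, plus strand: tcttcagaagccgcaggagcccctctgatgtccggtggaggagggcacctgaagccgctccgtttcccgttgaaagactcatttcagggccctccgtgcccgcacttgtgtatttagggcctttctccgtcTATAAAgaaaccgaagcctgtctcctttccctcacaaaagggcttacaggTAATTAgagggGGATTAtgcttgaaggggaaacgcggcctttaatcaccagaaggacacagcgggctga
Cldn2, chrX:139800558-139800807, plus strand: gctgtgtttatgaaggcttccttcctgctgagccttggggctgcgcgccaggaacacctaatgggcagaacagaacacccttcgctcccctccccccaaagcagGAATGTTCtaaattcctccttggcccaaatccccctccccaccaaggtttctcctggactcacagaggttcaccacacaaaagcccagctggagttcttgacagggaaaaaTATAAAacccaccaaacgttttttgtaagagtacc

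Abca4 held TAATTA and TATAAA and, on the other strand, TAATCC, which reads GGATTA as printed. Cldn2 held 1 GAANNTTC and 1 TATAAA, and Kl and Aqp1 held none of the 4 motifs. TAATCC was present in 7.5% of the 40 windows and in 6.25% of all 32851 windows of the same length, TAATTA in 7.5% and 4.84%, GAANNTTC in 10.0% and 6.69%, and TATAAA in 15.0% and 12.4%. A match is a run of letters only, and nothing was measured at these promoters. G and C made up 66.8% of the Kl window, 62.0% of the Aqp1 window, 54.4% of the Abca4 window and 52.0% of the Cldn2 window, against a median of 52.4% over all windows.

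Genes outside the group that are known from the same epithelium were read in the same way. Of 26 such genes tested, 9 were lower at an unadjusted p-value under 0.05 and 0 higher, 8 had no overlap between the groups, and the median log2 fold change was -0.60. At that p-value 10.0% of all genes tested were lower and 10.0% higher, and 12% were lower without overlap. Slc2a12, a glucose transporter, had -0.98 (SE 0.25), Cgnl1, a junction protein, -0.91 (SE 0.24), Gmnc, a regulator of multiciliated cells, -1.50 (SE 0.40), and Ace, angiotensin-converting enzyme, -0.86 (SE 0.25). Of 26 other genes for the transport of ions into the cerebrospinal fluid, most of which neurons and glia use as well, 6 were lower and 0 higher at the same p-value, with a median of -0.17. The cation channel gene Trpv4 is in both lists and is counted among the 9 and among the 6. The potassium chloride cotransporter gene Slc12a4 had -0.56 (SE 0.12) and Atp1b2, a sodium pump subunit, -0.51 (SE 0.15).

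Receptors, ligands and carriers that act with the 34 genes had a median of -0.07 over the 32 tested, with 6 lower and 2 higher at an unadjusted p-value under 0.05. All genes tested gave 10.0% lower and 10.0% higher, so the count of higher genes lay below that share. Igf1r, the receptor of the IGFs, had -0.74 (SE 0.14). The Wnt co-receptor gene Lrp5 had -0.89 (SE 0.17), and Lrp4, of the same receptor family, had -0.56 (SE 0.15). Crabp1, which binds retinoic acid, had 1.56 (SE 0.50). No gene of these 3 lists passed the adjusted threshold in edgeR. DESeq2 called 1 of 8, 2 of 22 and 2 of 15 genes with an adjusted p-value lower in the 3 lists, in the order given, and 0 higher. Over all brain genes with an adjusted p-value, it called 3.66% lower.

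Other cell types that lie in or near the plexus were set beside these values. The counts below compare with 10.0% lower, 10.0% higher and 12% lower without overlap among all genes tested. Of 17 endothelial genes, 12 were lower at an unadjusted p-value under 0.05 and 11 without overlap, with a median of -0.66, and their sum was 658, 409 and 485 in control and 332, 380 and 311 after heat stress. The endothelial list was highest in control replicate 1 for 15 of its 17 genes, and control replicate 3 for 29 of the 33 choroid plexus genes. Control replicate 3 was also the highest for 8 of 12 oligodendrocyte genes and for 8 of 12 genes of habenula and thalamus. Over all genes tested, control replicate 3 was the highest for 16.1%, and the share for control replicate 1 was not counted. Of 19 ependymal genes, which mark the ciliated cells that line the ventricle, 0 were lower and 1 higher, and the median was -0.17. Of 16 leptomeningeal fibroblast genes 0 were lower and 0 higher, with a median of -0.03. The habenula and thalamus list had 5 of 12 lower and 0 higher, with a median of -1.13, and the striatal list had 0 of 14 lower and 13 higher, with a median of 1.15. Of the genes with an adjusted p-value in DESeq2, it called 5 of 8 endothelial genes lower, 5 of 12 striatal genes higher, and 0 of 4 leptomeningeal and 0 of 5 habenular and thalamic genes in either direction. Of all 7987 brain genes with an adjusted p-value, DESeq2 called 292 (3.66%) lower and 604 in either direction. No ependymal gene had an adjusted p-value in DESeq2. The part of these lists in the choroid plexus values was not tested.

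**Figure D4:**
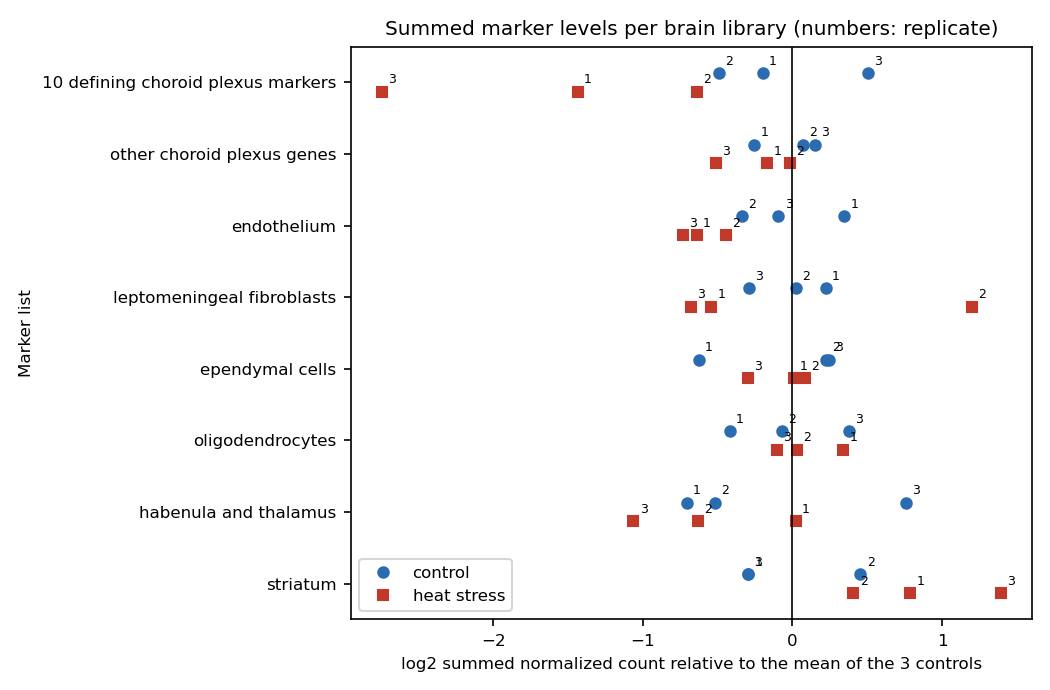
Summed normalized counts of 8 marker lists in each brain library, as log2 relative to the mean of the 3 controls (horizontal axis), for control (blue circles) and heat stress (red squares) with the replicate number above each point. The defining choroid plexus markers span the widest range, from 266 CPM in heat stress replicate 3 to 2527 CPM in control replicate 3, and the striatal list is highest in heat stress replicate 3.

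In liver, 17 of the 34 genes had enough counts to be tested. The other 17 had at most 28 counts in a library, and 12 of them at most 3 in every library. The genes Tmem72, Otx2, Sostdc1 and Lmx1a had no liver count, so their share was at most 1.92e-05% in the deepest liver library and 2.87e-05% in the shallowest. The median log2 fold change of the 17 was 0.08 against 0.01 over all 12296 genes tested, and 10 lay above 0 and 7 below. No liver gene passed an adjusted p-value under 0.05 in the main edgeR fit (0%). At an unadjusted p-value under 0.05, 0 of the 17 were lower, against 2.87% of all genes, and 2 were higher, against 2.97%.

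Those 2 were Aqp1 and Igfbp2. Aqp1, which bile duct and endothelial cells of the liver use, had 65.6, 85.3 and 82.0 normalized counts in control and 90.5, 117 and 105 after heat stress, without overlap (log2 fold change 0.43, SE 0.18, adjusted p = 0.846 in edgeR). Igfbp2, which hepatocytes secrete, had 336, 221 and 232 in control and 289, 374 and 584 after heat stress, with overlap (log2 fold change 0.66, SE 0.28, adjusted p = 0.846 in edgeR). Ttr had 8130, 7238 and 5992 normalized counts in control and 7881, 6955 and 10670 after heat stress (log2 fold change 0.26, SE 0.24, adjusted p = 0.947 in edgeR), so the groups overlapped. F5 ran from 244 to 302 in control and from 269 to 302 after heat stress (log2 fold change 0.08, SE 0.18). For Enpp2 all 3 heat stress livers lay above all 3 controls, with 49.2 to 63.5 in control and 64.7 to 83.8 after heat stress (log2 fold change 0.38, SE 0.18), and for Prlr they lay below, with 96.4 to 101 and 71.0 to 90.3 (log2 fold change -0.27, SE 0.17). The share of all liver genes without overlap was not counted. The lack of overlap for Aqp1, Enpp2 and Prlr is therefore given as a description only. Liver control replicate 1 and heat stress replicate 2 also carried skeletal muscle transcripts, with a summed normalized count of 473 and 2570 against 1.2 to 8.0 in the other 4 livers. Without each library in turn, the log2 fold change in liver stayed between 0.31 and 0.50 for Aqp1, between 0.32 and 0.86 for Igfbp2 and between 0.05 and 0.38 for Ttr.

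**Figure D5:**
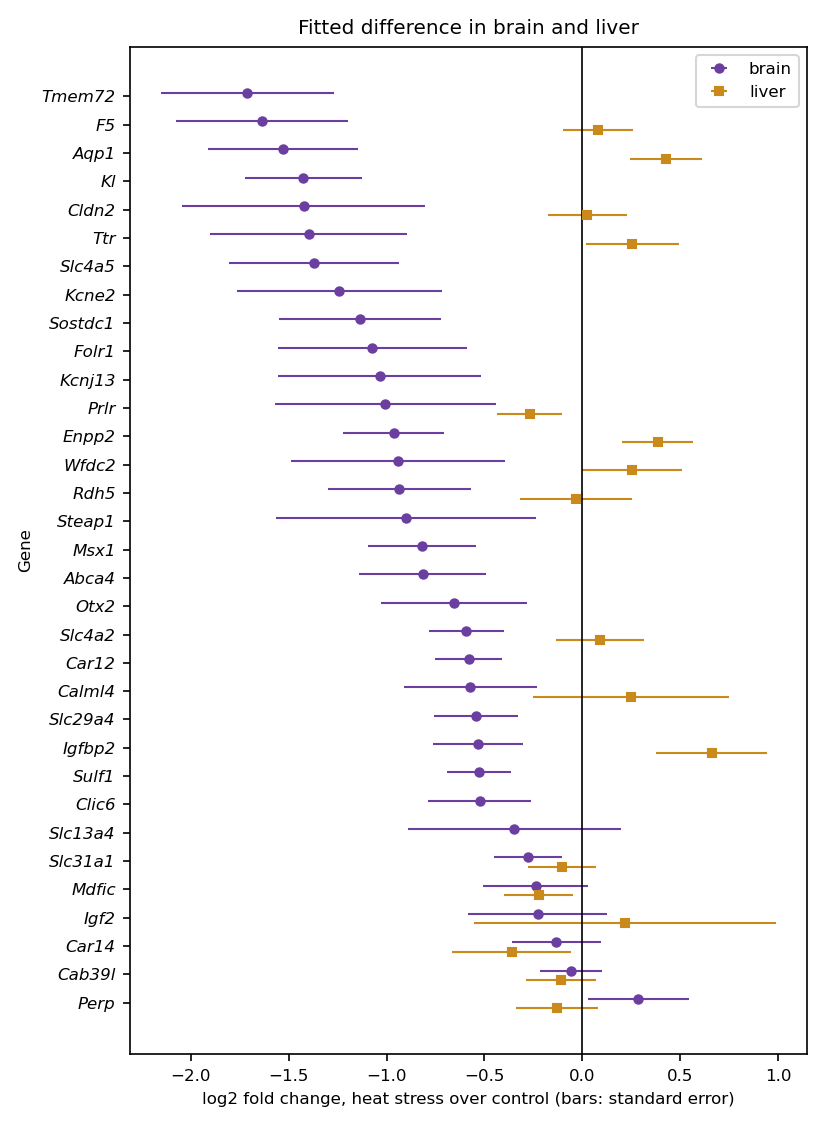
Fitted log2 fold change of heat stress over control (horizontal axis, bars are standard errors) for the 33 genes tested in brain (purple circles) and the 17 tested in liver (orange squares). The brain values of all genes but Perp lie below 0, down to -1.71 for Tmem72, while the liver values lie on both sides of 0.

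The difference of the effect between the tissues was tested in a fit of all 12 libraries. That fit treated the libraries as independent, although brain and liver libraries appear to share mice. Its p-values do not account for shared animals. None of the 17 genes tested in both tissues passed the adjusted threshold, which 0.00632% of all 15824 genes did. At an unadjusted p-value under 0.05, 5 of the 17 had a lower log2 fold change in brain than in liver, against 3.73% of all genes. These were Aqp1 with a difference of -1.96 (SE 0.43, adjusted p = 0.417 in edgeR), Enpp2 with -1.33 (SE 0.36), F5 with -1.70 (SE 0.50), Igfbp2 with -1.16 (SE 0.44) and Ttr with -1.63 (SE 0.63, adjusted p = 0.516 in edgeR). The differences for the other 12 genes ran from -1.42 for Cldn2 to 0.42 for Perp.

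Reads could be shared with a neighbour for some of the genes, since the use of strand in the counting is not stated. Exons of Cab39l, Car14, Kcnj13, Slc4a2, Otx2, Igf2, F5 and Enpp2 overlap those of a gene on the opposite strand that is also in the table, and Rdh5 overlaps Bloc1s1 on the same strand. On mm10 Kl lies on chromosome 5 from 150952607 to 150993817, Aqp1 on chromosome 6 from 55336432 to 55348555, F5 on chromosome 1 from 164151838 to 164220277, Tmem72 on chromosome 6 from 116679063 to 116716913 and Enpp2 on chromosome 15 from 54838901 to 54952892, and none of Kl, Aqp1 and Tmem72 has such an overlap.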

How the data were processed

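Each of the 12 messenger RNA libraries, 3 for every tissue and treatment, counts as 1 replicate of its tissue and treatment. The group size in the paper equals the number of libraries per tissue and treatment. Brain and liver libraries therefore appear to share mice, but the labels do not say which. No fit across the tissues modelled this. In a single table, the authors deposited raw read counts, without normalization, for 25239 gene symbols. The sources describe the counting in 2 ways, with Trimmomatic 0.39, HISAT2 2.2.1 on mm10 and featureCounts of Subread 2.0.1, or with Tophat2 and HTSeq; the annotation and the use of strand are not given in the sources used here, so reads of genes that overlap may be shared. Tables of the authors' own comparisons hold fold changes and p-values and were not used. No column of a single library was left unused (0). In liver, the column names of control replicate 2 and of heat stress replicates 1 and 3 carry the suffix 2nd, which is not explained. Its part in the liver values was not tested.

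Heat stress was compared with control in each tissue by edgeR 4.0.16 (R 4.3.3): the robust quasi-likelihood test with TMM normalization, filterByExpr (10 counts at least in a library and 15 in all), and p-values adjusted after Benjamini and Hochberg over all genes tested, at 0.05. The same test gave the difference between the tissues in a fit of 4 groups. DESeq2 1.42.0 and limma 3.58.1 (voom) were alternatives, with other normalizations and filters, all 12 libraries in 1 fit, the replicate number as a block and each library left out. The standard error of a log2 fold change is its size divided by the root of F. The procedures were tested on simulated data. With 3 against 3, an exact permutation test of a single value cannot go below p = 0.1. Totals of 10466198 to 15609040 counts per library set the precision, and limits from a count of 0 use 3 counts and cover counting error only.

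The genes and lists were chosen with earlier results of these data known. Values in every library are given for genes with an unadjusted p under 0.05 in brain, at most 14 by smallest p, and for Ttr; of the other lists, at most 4 genes of smallest p are named. Igf2 and Slc13a4 were given by library, and Igfbp2 in part, after their values were seen. Exon overlap and length come from GENCODE M21 on GRCm38 (mm10) and promoters from RefSeq on GRCm38.p6.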

Additional observations from a re-analysis of the deposited data

How the results depend on the processing

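In brain, the number of the 33 genes lower at an unadjusted p-value under 0.05 was 18, and it lay between 15 and 19 with the other normalizations, filters and tools and with all 12 libraries in 1 fit, where 4.10% (all 12 libraries) to 10.1% (stricter filter) of all genes were lower in the same fits. Leaving out each library in turn gave 7 to 24, where 5.91% to 13.3% of all genes were lower in the same fits, and leaving out control replicate 3 and heat stress replicate 3 together, which was chosen after seeing the data, gave 6. The median log2 fold change, -0.82, lay between -1.05 and -0.50 with each library left out and was -0.25 without both. The number of genes lower in every heat stress library, 11, cannot fall when a library is left out, and it then lay between 11 and 25, while the share over all genes tested went from 12% to between 14.6% and 21.6%. DESeq2 called 2 genes of the group in brain at an adjusted p-value under 0.05, and edgeR called 0 of the group under each of its settings. Over all liver genes, edgeR called 0 in the main fit, 14 with all 12 libraries in 1 fit and 25 without control replicate 1. It called 2 with upper quartile normalization, 3 with total count normalization, 8 with no filter and 1 without heat stress replicate 2. None of these was a gene of the group. In liver, the median of 0.08 lay between -0.0265 and 0.236 with each library left out, with the former without control replicate 3 and the latter without control replicate 1. Fewer libraries per group also lower the power of the test.

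With the replicate number as a block, edgeR gave 12 of the 33 brain genes (36.4%) lower at an unadjusted p-value under 0.05, against 9.42% of all genes in that fit. It called 0 genes of the group in brain and 0 in liver. Over all genes it called 0 in brain and 1 in liver. The median of the group in brain was -0.86 and in liver 0.08. The replicate numbers share no stated animal or batch, and same-numbered brain libraries had correlations of their deviations of -0.30, 0.23 and -0.20, so they were not taken as pairs.

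The sign of a log2 fold change turned in 12 of 528 brain values, of 7 genes. Without both replicates 3, it was 0.17 for Steap1, 0.051 for Igf2, 0.17 for Cab39l, 0.053 for Mdfic, 0.017 for Slc31a1 and 0.30 for Car14. With each library left out, Igf2 ran from -0.86 to 0.028, Cab39l from -0.19 to 0.077, Car14 from -0.28 to 0.16 and Perp from -0.029 to 0.48. In liver 18 of 254 values of 7 genes turned. Cldn2 was -0.012 with all 12 libraries in 1 fit, Igf2 -0.016 and Rdh5 0.023 with limma-voom, and Rdh5 0.041 with the replicate block. With each library left out, the liver values ran from -0.078 to 0.24 for Cldn2, from -0.18 to 0.49 for Calml4, from -0.62 to 1.28 for Igf2, from -0.27 to 0.33 for Rdh5, from -0.56 to 0.059 for Car14, from -0.27 to 0.025 for Perp and from -0.033 to 0.33 for Slc4a2. The cause was not tested.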
